A study of Equus caballus with 37 samples.

Results

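NFAT5 (ENSECAG00000010266) encodes nuclear factor of activated T cells 5, also called tonicity-responsive enhancer binding protein, and is described here across blood RNA libraries of Arabian horses in race training. It is 1 row of the 26991 genes in the count table. The row was picked with its levels in the training periods known, since NFAT5 is among the genes the study lists as regulated in more than 1 comparison. For this reason the differences between periods are given as a description with standard errors and without p-values.

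NFAT5 belongs to the Rel family of transcription factors, but unlike the other NFAT proteins it is not switched on by calcineurin. In cells that lose water to a salty environment it binds tonicity-responsive elements and raises the transcription of genes for osmolyte transporters, for aldose reductase and for heat shock proteins. Lymphocytes and macrophages also use it for cytokine genes.

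The libraries came from jugular blood, collected before the day's training into tubes that preserve RNA. T0 held 6 untrained horses, sampled in October. T1 held 12 libraries taken in March after the slow canter (conditioning) phase, T2 held 11 taken in May after the intense gallop phase, and T3 held 8 taken in October when the racing season ended. The labels give an age of 3 years for the horses of T1, T2 and T3 and of 2.5 years for T0, apart from 1 T0 library labelled 3 years. The same trained horses were bled repeatedly. By the study's account some of the untrained horses did not go on to training, so others may be among the trained ones. No label ties a library to a horse, so libraries were treated as independent. T1, T2 and T3 share the labelled age, and among them training stage and calendar month cannot be told apart. T0 and T3 share the month and differ in training and, in all but 1 library, in labelled age, while T0 differs from T1 and T2 in training, month and age together. The libraries were sequenced in several pools that held the periods in unequal shares, and the untrained horses were in only some of them. The pools are given under sample numbers that no label repeats, so pool was not fitted and its part in the results was not tested.

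Between 3810631 and 14932603 counts were assigned to genes per library, with a median of 10611594. Levels are given in CPM, the reads of a gene per 1000000 reads of the library, after scaling with the trimmed mean of M-values (TMM), a factor that corrects the library total when a small set of genes takes an unusual share of it. Libraries of T1 stood apart on this factor: 5 of the 12 had factors from 0.410 to 0.696, while every library of the other periods had at least 0.949. In these 5 libraries 11559 to 14108 genes had at least 1 count, against 14039 to 15208 in the other 7 of T1. The study's sequencing statistics also list low shares of uniquely mapped reads for some T1 samples, again under numbers that the labels do not repeat. At the median total, 1 CPM corresponds to about 11 reads.

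NFAT5 was higher in both October groups, the untrained horses and the horses at the end of the season, than in March and May. T3 had the highest mean, 25.6 ± 13.8 CPM (SD, n = 8), followed by T0 with 15.3 ± 3.35 CPM (SD, n = 6). T1 and T2 were close to each other, with 4.31 ± 1.90 CPM (SD, n = 12) and 4.26 ± 2.23 CPM (SD, n = 11). Of the 14 October libraries, 13 were above all 23 libraries of March and May. The share of all genes with at least 13 such libraries was not computed, so nothing is read from this count. By the stricter rule, 152 genes had all 14 October libraries above the other 23, and NFAT5 was not among them. Over the 37 libraries, 12025 genes passed the filter on low counts. In the order of the means, the gap of 11.04 CPM between T0 and T1 was larger than the SD of either group. The gap of 10.3 CPM between T3 and T0 was smaller than the SD of T3, and the gap of 0.0487 CPM between T1 and T2 was far smaller than both SDs. With library totals alone, T1 and T2 changed places (3.37 ± 1.41 and 4.75 ± 2.66 CPM), and T0 and T3 stayed above both with 18.35 ± 3.83 and 30.15 ± 17.3 CPM. In whole blood, a lower share of the cells that express a gene and less of its RNA per cell cannot be told apart.

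**Figure D1:**
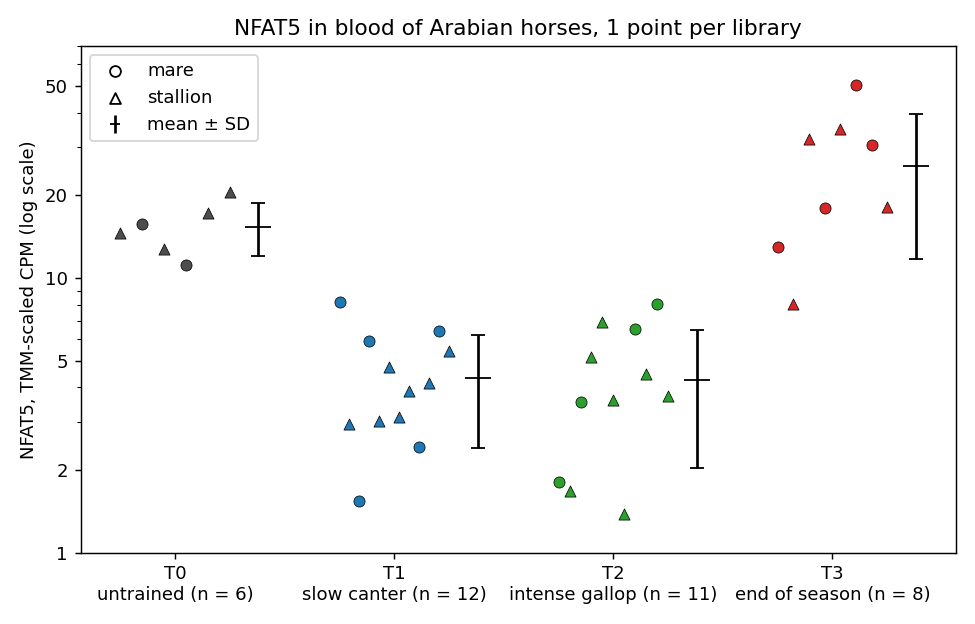
NFAT5 level (TMM-scaled CPM, log axis) in each of the 37 libraries by period, with mares as circles and stallions as triangles; black bars are the mean ± SD of the period. The T1 and T2 libraries lie between 1.38 and 8.18 CPM, and the T0 and T3 libraries between 8.05 and 50.3 CPM.

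In the untrained horses the 6 libraries were close to each other, from 11.1 CPM through a median of 15.2 to 20.6 CPM. They rested on 158 to 273 NFAT5 reads each. All of them were above every T1 and every T2 library.

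In T1 the lowest library had 1.54 CPM, the median was 4.00 and the highest library had 8.18 CPM. The lowest value, in replicate 3, rested on 9 reads, for which the 95% Poisson interval of 4.12 to 17.1 reads covers counting error only. The 2 highest values, 8.18 CPM in replicate 1 and 6.40 CPM in replicate 11, were in libraries with the lowest TMM factors, 0.492 and 0.410. By the library total alone these 2 libraries had 4.02 and 2.62 CPM, within the range of the other T1 libraries. Scaling thus set the upper end of T1: the 5 libraries with a factor below 0.9 had 4.99 ± 2.70 CPM (SD, n = 5) with TMM and 2.64 ± 1.44 without it, and the other 7 had 3.82 ± 1.05 (SD, n = 7) and 3.88 ± 1.23.

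In T2 the lowest library had 1.38 CPM, the median was 3.72 and the highest had 8.05 CPM. Replicates 1, 2 and 7 formed the low end with 15 to 18 reads each, and replicates 5, 8 and 10 the high end with 75 to 98 reads.

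In T3 the values ran from 8.05 CPM (replicate 2, 93 reads) through a median of 24.4 to 50.3 CPM (replicate 6, 875 reads). Replicates 3, 5, 6 and 7 had 30.6 CPM or more, and replicates 1, 2, 4 and 8 had 18.2 CPM or less. The first 4 were above every untrained horse, and the other 4 were within or below the range of T0. The highest library of the series held 36.5 times the NFAT5 level of the lowest.

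From the gallop phase to the end of the season (T2:T3), NFAT5 was 5.89-fold higher, a log2 fold change of 2.56 with a standard error of 0.34. Of the 11599 genes tested in this pair, 9 had a larger one. Every T3 library was above the T2 median. Whether the groups overlapped depended on the scaling of a single pair of libraries: T3 replicate 2 and T2 replicate 10 both had 8.05 CPM when the 37 libraries were scaled together, with T3 just higher, and they changed places when T2 and T3 were scaled alone. As background, from which nothing is read, 3.66% of all genes tested had every T3 library above every T2 library.

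From the canter phase to the end of the season (T1:T3) it was 6.16-fold higher, with 2.62 on the log2 scale and a standard error of 0.31, and 45 of 11471 genes had a larger value. All 8 T3 libraries were above the T1 median, and 7 of 8 were above the highest T1 library. The groups did not overlap when these periods were scaled alone, which was the case in this direction for 12.3% of genes. Without the 5 T1 libraries with a low TMM factor, the log2 fold change was 2.74.

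The untrained horses also stood apart from T1 and T2. NFAT5 was 3.70-fold lower in T1 than in T0 (log2 fold change -1.89, standard error 0.25) and 3.50-fold lower in T2 (-1.81, standard error 0.30). The groups did not overlap in either pair. Genes with every library lower than in T0 made up 14.5% of those tested in T0:T1 and 5.48% in T0:T2, and nothing is read from these shares, since the levels helped to choose NFAT5. In T0:T2, 35 of 11662 genes had a lower log2 fold change than NFAT5, and in T0:T1, 258 of 11544 did. These comparisons share the T0 libraries, those of the preceding paragraphs share the T3 libraries, and the T1 and T2 libraries enter both kinds.

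Between the 2 October groups (T0:T3) NFAT5 was 1.65-fold higher in T3, which is 0.72 on the log2 scale with a standard error of 0.31. Of the 11696 genes tested in this pair, 732 (6.26%) had a larger log2 fold change. Among the 8 T3 libraries, 6 were above the T0 median, 4 were above the highest T0 library and 1 was below the lowest. Every T3 library above every T0 library was seen for 2.17% of genes. The estimate was 0.51 without T3 replicate 6 and 0.87 without T3 replicate 2.

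Between T1 and T2 the means lay within the spread of both groups. The log2 fold change was 0.04 (standard error 0.29), and 5 of 11 T2 libraries were above the T1 median. Its sign changed when 1 library was left out in 6 of 23 fits, and with the library total alone it was 0.50 (standard error 0.32).

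**Figure D2:**
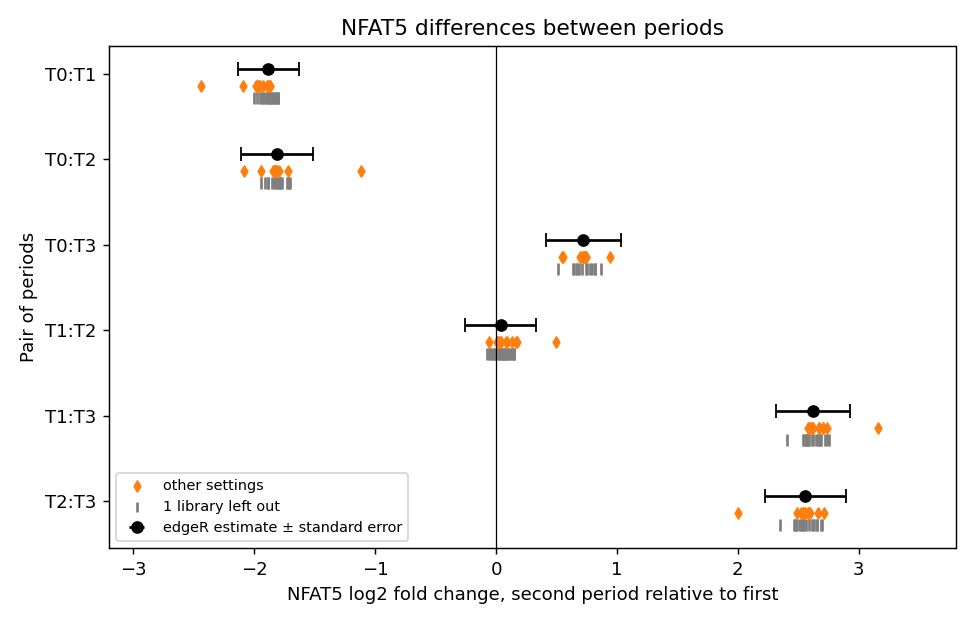
Log2 fold change of NFAT5 in the 6 pairs of periods, second period relative to first (black, edgeR estimate ± standard error), with the estimates of other settings (orange) and with 1 library left out (grey). T1:T3 and T2:T3 lie near 2.6, T0:T1 and T0:T2 near -1.8, T0:T3 at 0.72 and T1:T2 at 0.04.

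**Figure D3:**
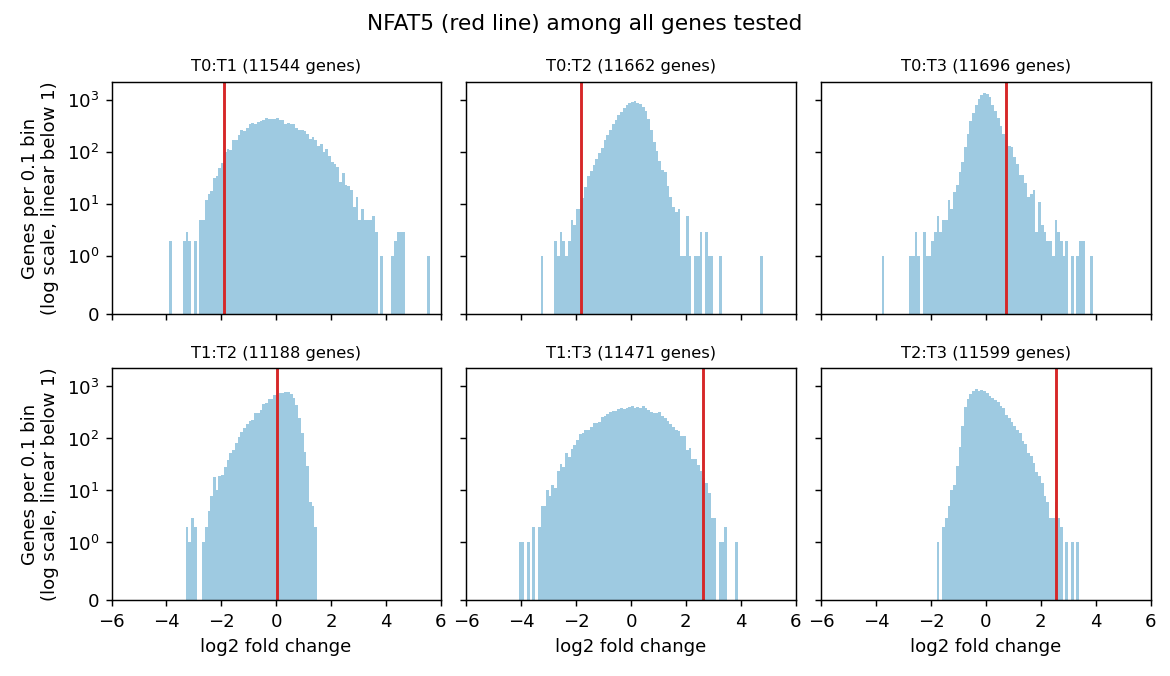
Number of genes per 0.1 of log2 fold change (log axis, linear below 1) in each pair of periods, with NFAT5 as a red line. NFAT5 lies in the right tail in T1:T3 and T2:T3, in the left tail in T0:T1 and T0:T2, and in the middle in T1:T2. In T0:T3, 6.26% of genes lie to the right of it.

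NFAT5 varied more between T3 libraries than most genes did. Its coefficient of variation (CV, the SD as a percentage of the mean) was 54.0% in T3 and 52.3% in T2, and 94.4% and 90.8% of genes had a lower CV in these periods. In T1 the CV was 44.1%, close to the median of 43.03% over all genes, and in T0 it was 21.8% against a median of 16.9%. Counting error alone would give a CV of 5.05% in T3, 14.6% in T2, 21.5% in T1 and 6.98% in T0.

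Within T2, the NFAT5 level followed the TMM factor of the library. The relation was computed for NFAT5 alone, so whether it is particular to this gene was not tested. Pearson's r between log2 CPM and the log2 factor was 0.848 and Spearman's rho 0.791 (n = 11, permutation test with 100000 resamples, p = 0.0014 and 0.0055, adjusted over the 8 relations of each kind p = 0.011 and 0.044), and r was 0.814 without the 2 libraries farthest from the median factor. The 3 T2 libraries with the lowest NFAT5 had the 3 lowest factors, from 0.949 to 1.001. In T3, r was 0.730 and rho 0.810 (n = 8, exact permutation test, p = 0.040 and 0.022), which did not pass the adjustment (p = 0.11 and 0.087), and r was 0.940 without the 2 farthest libraries. Here the 4 libraries with 30.6 CPM or more had factors of 1.17 or more, and the other 4 had factors from 1.05 to 1.13.

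In T1 and T0 the relation did not pass the test. In T1, rho was -0.17 (n = 12, permutation p = 0.59), and Pearson's r turned from -0.19 to 0.447 without the 2 libraries farthest from the median factor, so its sign rested on those 2. In T0, rho was -0.49 (n = 6, exact permutation p = 0.36), and r went from -0.385 to -0.072 in the same way. The factor enters the CPM itself. With CPM of the library total alone, rho was 0.873 in T2, 0.810 in T3 and 0.54 in T1, where it did not pass (n = 12, permutation p = 0.076, adjusted p = 0.15) and where r was 0.493 with all libraries and 0.779 without those 2. For the library total in T3, r = 0.812 and rho = 0.762 (n = 8, exact permutation p = 0.016 and 0.037, adjusted p = 0.063 and 0.098), which did not pass the adjustment, and r was 0.788 without the 2 farthest libraries. A pooled correlation is not given, because the periods form separate clusters.

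With the log2 factor as a covariate, the log2 fold change was -1.12 in T0:T2, a 2.17-fold difference in place of 3.50-fold. It was also nearer to 0 in T2:T3, at 2.003. In the other pairs it was farther from 0, at -2.09 in T0:T1, 0.94 in T0:T3, 2.70 in T1:T3 and 0.08 in T1:T2. What part the make-up of the libraries has in the NFAT5 differences was not tested.

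**Figure D4:**
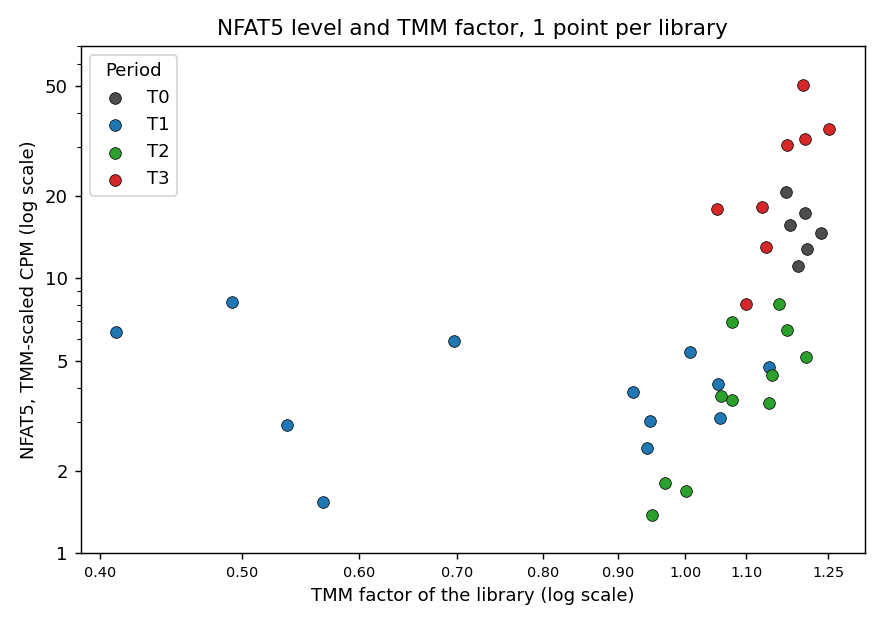
NFAT5 level (TMM-scaled CPM, log axis) against the TMM factor (log axis), 1 point per library, coloured by period. The T2 and T3 points rise with the factor, the T0 points lie at factors of 1.17 to 1.235, and 5 T1 points lie below a factor of 0.9.

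Sex did not enter the choice of NFAT5 and could be tested. With the period as a term, libraries of mares (n = 15) and of stallions (n = 22) differed by a log2 fold change of 0.21 (95% interval -0.26 to 0.67, higher in mares). The difference did not pass the edgeR quasi-likelihood test (adjusted p = 0.59). These n count libraries, not horses. Repeated bleeds of a horse entered as independent, so the interval and the p-value do not measure the spread between horses. Mares had the higher mean in T1, with 4.89 ± 2.80 CPM (SD, n = 5) against 3.89 ± 0.947 (SD, n = 7), in T2, with 4.97 ± 2.83 (SD, n = 4) against 3.85 ± 1.94 (SD, n = 7), and in T3, with 27.95 ± 16.6 (SD, n = 4) against 23.3 ± 12.5 (SD, n = 4). In T0 the stallions had the higher mean, 16.3 ± 3.39 CPM (SD, n = 4) against 13.4 ± 3.23 (SD, n = 2). All of these gaps were within the SD of at least 1 of the sexes. In T1, sex went largely with the TMM factor. The libraries with a factor below 0.9 were those of mare replicates 1, 3, 4 and 11 and stallion replicate 2. Without them the log2 fold change between the sexes was 0.09, and with library totals alone it was 0.0044. In the fit over the 37 libraries, 4 of 12025 genes (0.0333%) passed the threshold of 0.05, and 2009 had an unadjusted p-value below it. The 2009 are more than this threshold would give without any effect, and the reason was not tested. With DESeq2, 14 genes passed. The sex by period interaction of NFAT5 did not pass either (adjusted p = 0.92 from edgeR). No gene passed that test with edgeR (0 of 12025), 2554 had an unadjusted p-value below 0.05, and DESeq2 called 109. The 2554, too, are more than the threshold would give without any effect.

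Many genes shared the profile of NFAT5 over the 37 libraries. Spearman's rho with NFAT5 was at least 0.8 for 836 of 12024 genes (6.95%) and -0.8 or below for 181 (1.51%), with a median of -0.01. All of these values share the same libraries, depths and scaling, so they are a description. The most similar genes, ENSECAG00000019257 and ENSECAG00000011969, had rho of 0.935 and 0.934. The least similar, ENSECAG00000013908 and ENSECAG00000025015, had -0.888 and -0.881. The sources at hand give no names for these 4 genes.

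Of the 10 genes most like NFAT5, a name was at hand for PRR14L, which had a rho of 0.928. PRR14L also had the highest correlation with NFAT5 after the period means were subtracted (Pearson's r = 0.837). The October means of PRR14L were 28.2 ± 4.78 CPM in T0 and 30.2 ± 12.3 CPM in T3 (mean ± SD, n = 6 and 8), and those of March and May were 4.97 ± 1.93 and 5.58 ± 3.21 CPM (n = 12 and 11). For PRR14L the log2 fold change came to 2.405 (standard error 0.37) in T2:T3, close to that of NFAT5, but 0.08 (standard error 0.24) in T0:T3, where NFAT5 had 0.72. The difference between these 2 genes was not tested.

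Next to NFAT5, 16 further genes are listed by the study as up-regulated in several of its comparisons. They were chosen on these libraries, so their direction is no independent evidence. Their median rho with NFAT5 was 0.828 and 10 of the 16 reached 0.8. The highest were FOXN2, a forkhead transcription factor, with 0.905, HIPK1, a nuclear protein kinase, with 0.904, NCOA2, a coactivator of nuclear receptors, with 0.90, and TMED5, a protein of the early secretory pathway, with 0.868.

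The log2 fold change of NFAT5 was above that of each of the 16 in T2:T3, where they ranged from 0.40 (ACVR2A, an activin receptor) to 1.86 (FOXN2) on the log2 scale. The same held in T0:T3, where the highest of them was NCOA2 with 0.66 (standard error 0.15). The median of the 16 in T0:T3 was 0.18, and 3 of them were below 0. In T0:T2 and T1:T3, too, none of the 16 was farther from 0 than NFAT5. The 16 are not all the genes the study names. PRR14L, named outside them, was farther from 0 than NFAT5 in both pairs, at -2.30 in T0:T2 and, by a small margin, 2.63 in T1:T3. In T0:T1, 3 of the 16 were lower than the -1.89 of NFAT5, namely ATP13A3, a P-type ATPase, with -2.26, MBTD1, a chromatin reader, with -1.97, and HIPK1 with -1.94. The order differed between T1 and T2: 15 of the 16 (all but ZNF618, at -0.04) had a log2 fold change above 0, with a median of 0.44, and 14 had a larger one than the 0.04 of NFAT5. In T3, 1 of the 16 had a higher CV than NFAT5, the nucleotide-sugar receptor gene P2RY14 with 72.0%.

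**Figure D5:**
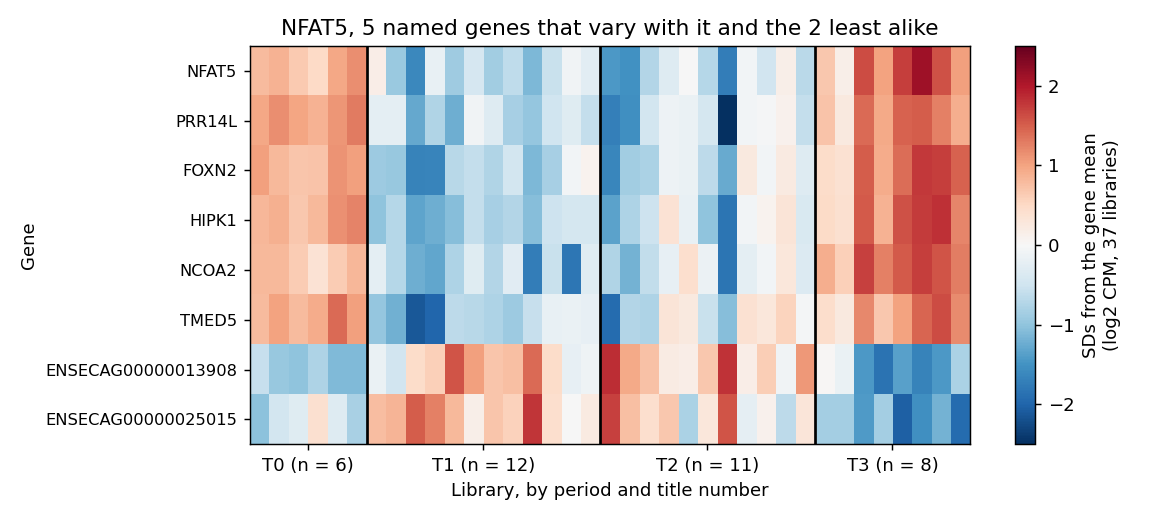
Level of NFAT5, of PRR14L, of the 4 listed genes most like NFAT5 and of the 2 genes least like it, in SDs from each gene's mean of log2 CPM over the 37 libraries, ordered by period and title number. The first 6 rows are high in T0 and T3 and mostly low in T1 and T2, and the last 2 rows are mostly the opposite. Some T2 libraries lie above the gene mean in the first 6 rows, most often for TMED5.

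Genes of the NFAT5 pathway could not be described. Of 111 symbols listed for NFAT relatives, kinases upstream of NFAT5, its osmolyte, chaperone and cytokine targets, cell volume control and blood cell types, 1 could be paired with an identifier of the count table, the granzyme gene GZMH. The blood cell make-up of the libraries was therefore not checked against markers. In the RefSeq annotation of the TB-T2T horse assembly, which is a newer build than that of the counts, NFAT5 has 15 transcripts, lies between CYB5B and NQO1, and overlaps 1 long non-coding RNA gene, LOC138923582. The library kit, TruSeq RNA v2, does not mark strand, so reads from overlapping genes cannot be told apart.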

How the data were processed

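RNA from whole blood was sequenced in 75-bp single-end reads by the authors, who trimmed the reads with Flexbar, aligned them with STAR to EquCab2 (Ensembl release 83) and estimated expression per gene with RSEM. The deposited counts are whole numbers per gene, though RSEM estimates need not be whole, and were not normalized; all 26991 rows are Ensembl genes. Within each period, every pair of libraries differed beyond sampling noise (chi-square at least 14.45 times its degrees of freedom), so no library was taken for a duplicate. The 3 smaller tables, which hold counts of fewer genes for single comparisons, were not used.

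The fits used edgeR 4.0.16 under R 4.3.3. For each pair of periods, low counts were removed with filterByExpr and TMM factors and the quasi-likelihood fit were computed over the libraries of that pair. Standard errors were taken from the quasi-likelihood F statistic, as the size of the log2 fold change over the root of F. Levels and correlations used 1 TMM scaling of 12025 genes over the 37 libraries (prior count 0.5 on the log2 scale). P-values of sex used the Benjamini-Hochberg method over all genes; permutation tests were two-sided. P-values measure the spread between libraries, some of which came from the same horse. NFAT5 and the gene lists were chosen with earlier results of these data known. Genes were named by a rule: the 10 most and 3 least correlated with NFAT5 (the first 2 of each are printed), the 10 most correlated within periods (the first is printed), and the 16 genes the study lists with it; 57 of the study's 74 identifiers carry a name. The tests were tested on simulated data with 200 changed genes, of which 97.0% were recovered in T2:T3 (11501 genes, log2 change 1.5) and 95.0% between sexes (11919 genes, log2 change 1). Of the calls, 4.9% and 5.0% were false. The changed genes were drawn above a minimum mean count, and the simulated libraries were independent, so repeated bleeding of a horse is not covered. Differences in library make-up were not simulated, so the share of false calls may not hold for the real libraries. NFAT5 was given no call in T2:T3, so the recovery there bears on no NFAT5 result. The simulated sex change was larger than the 0.21 estimated for NFAT5. Alternatives were DESeq2 1.42.0, other scaling, no filter, added terms including a surrogate variable from sva 3.50.0, thinning, fewer libraries and each library left out.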

Additional observations from a re-analysis of the deposited data

How the results depend on the processing

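The 6 period differences of NFAT5 were refitted 186 times, 111 times without 1 library and 75 times with another setting, and moved by less than 1 SD between libraries in all 186. This limit is wide, from 0.58 in T0:T1 to 0.86 in T2:T3 (log2), so staying within it says little about stability. In T0:T3 it was 0.69, close to the estimate of 0.72 itself. Without 1 library the differences ranged from -2.00 to -1.80 (log2) in T0:T1, -1.94 to -1.71 in T0:T2, 0.51 to 0.87 in T0:T3, -0.08 to 0.15 in T1:T2, 2.41 to 2.755 in T1:T3 and 2.35 to 2.695 in T2:T3. Among other settings, the TMM factor as a covariate moved T0:T2 (to -1.12) and T2:T3 (to 2.003) the most, and library totals alone moved T0:T1 (to -2.44), T1:T3 (to 3.16) and T1:T2 (to 0.50) the most. T0:T3 ranged from 0.54 to 0.94, and T1:T2 was -0.05 with a surrogate variable. The rho of NFAT5 with the TMM factor in T1 turned from -0.17 to 0.54 with library totals alone; the TMM factor is part of the scaled CPM.

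Same-numbered libraries did not pair: their deviations from the period means correlated from -0.33 to 0.48, and the sexes differed for some numbers in every pair. The sexes matched for 6 of 11 numbers in T1:T2, 5 of 8 in T1:T3 and 3 of 8 in T2:T3. In the pairs with T0 they matched for 2 or 3 of 6. With the title number as a replicate block the log2 fold changes were -1.96 in T0:T1, -2.08 in T0:T2, 0.56 in T0:T3, 0.02 in T1:T2, 2.58 in T1:T3 and 2.71 in T2:T3. As the numbers did not pair, the block does not stand for horses, and its estimates lend no support to the others. For sex the block gave 0.36 (edgeR adjusted p = 0.67), library totals alone gave 0.0044, and the adjusted p was 0.48 or higher in every refit. In the T1 libraries, 9 to 66 NFAT5 reads limit the precision.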
